A study of Mus musculus with 14 samples.

Results

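The genes described here are 33 markers of macrophages and other leukocytes, measured in cultures of mouse embryonic fibroblasts that had been given a set of cardiac reprogramming factors. A gene was taken as measured when the array had a feature with its symbol alone. By this rule 31 of the 33 genes had 1 feature each, out of 22206 features of which 19572 carry 1 symbol, and no feature carried the symbol Cd68 or Clec7a. Every one of the 31 features had a value on all 14 arrays. Fibroblasts in all 7 groups were transduced by retrovirus with Gata4, Hand2, Mef2c and Tbx5 (GHMT) and grown on Matrigel-based hydrogels, and RNA was taken 2 weeks after transduction. The groups were GHMT on soft hydrogels of 8 kPa (GHMT/8 kPa) and on stiff hydrogels of 126 kPa (GHMT/126 kPa), GHMT on 126 kPa with a lentiviral shRNA against YAP (GHMT/shYAP), against TAZ (GHMT/shTAZ) or with scramble shRNA (GHMT/Scramble), and GHMT on 8 kPa with the constitutively active mutant YAP-5SA (GHMT/YAP-5SA) or TAZ-4SA (GHMT/TAZ-4SA). Each group had 2 arrays from independent biological samples, each of them RNA of a whole culture. No group without GHMT was on an array.

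Macrophages are phagocytes of the innate immune system, and embryonic tissues that are dissociated to obtain fibroblasts also hold them. Their gene programme depends on the transcription factor PU.1, encoded by Spi1, and on signals through the CSF1 receptor. They take up particles through complement, scavenger and Fc receptors, signal through adaptors with immunoreceptor tyrosine-based activation motifs (ITAMs), and secrete C1q, which starts the classical complement cascade. YAP and TAZ, effectors of the Hippo pathway, act with TEAD factors on transcription and respond to mechanical cues.

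Each deposited value is a log2 ratio that the authors computed within 1 of 3 sets of arrays. The stiffness set is relative to the mean of the GHMT/126 kPa arrays and the shRNA set to the mean of the GHMT/Scramble arrays, while the reference of the mutant set is not stated. A ratio carries no signal level, so whether a marker was above background, and how its level compared with that of another gene, could not be read from these values. In RNA of whole cultures, fewer cells of a type and less RNA per cell cannot be told apart. Of the shRNA targets, Yap1 lay between -0.89 and -0.88 in the shYAP arrays, against -0.11 and 0.11 in the scramble arrays (log2 difference -0.88, adjusted p = 0.0498 from limma). Wwtr1, which encodes TAZ, lay between -0.36 and -0.31 in the shTAZ arrays, against -0.25 and 0.25 in the scramble arrays (log2 difference -0.34, adjusted p = 0.43 from limma), so the groups did not overlap but the difference did not pass the test.

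Arrays of the same group differed in these genes, most widely in the scramble, YAP-5SA and shYAP groups. The 31 markers were higher in scramble replicate 1 than in scramble replicate 2 by a median log2 of 1.99, and 27 of them by at least 1, as were 2.23% of all features. In shYAP replicate 1 they exceeded shYAP replicate 2 by a median of 1.10, with 18 markers at least 1 apart and higher in replicate 1 (0.217% of all features). In YAP-5SA replicate 2 they exceeded YAP-5SA replicate 1 by a median of 1.28, with 19 markers at least 1 apart and higher in replicate 2 (0.628% of all features). The TAZ-4SA arrays stood less far apart, with a median gap of 0.46 and 5 markers at least 1 higher in replicate 1 (0.14% of all features), the widest being Lyz2 at 2.18. In the 8 kPa and 126 kPa groups no marker differed by 1 or more between the replicates (1.17% and 1.38% of all features did). The median gaps were -0.07 and 0.08 (replicate 1 minus replicate 2).

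**Figure D1:**
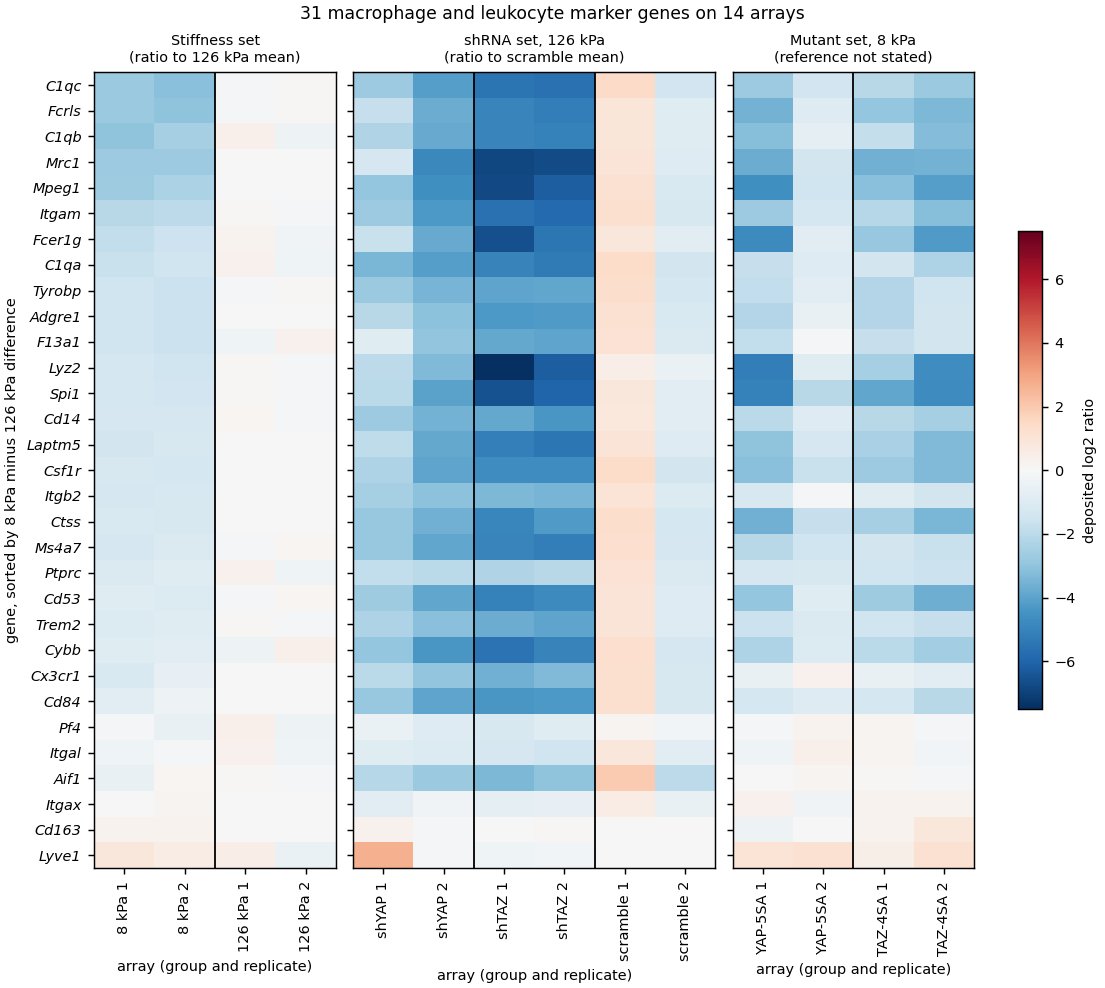
Deposited log2 ratios of the 31 marker genes (rows) on the 14 arrays (columns), in the 3 sets in which the ratios were made; blue is lower and red higher than the reference of that set. The 2 scramble arrays differ in colour from each other in nearly every row, whereas the 8 kPa arrays resemble each other.

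The promoters of the 5 markers that passed the test between 8 kPa and 126 kPa are shown first, because these are the only members that passed in any comparison. The windows hold the 250 bases before the RefSeq start of the gene (GRCm38.p6), read 5′ to 3′ on the gene's strand, for C1qc (chr4:136892915-136893164, minus strand), Fcrls (chr3:87263525-87263774, minus strand), Mrc1 (chr2:14229164-14229413, plus strand), Mpeg1 (chr19:12460520-12460769, plus strand) and Itgam (chr7:128062390-128062639, plus strand). Capitals mark GAGGAA, the purine-rich core that PU.1 prefers among ETS factors, or its complement TTCCTC.
C1qc: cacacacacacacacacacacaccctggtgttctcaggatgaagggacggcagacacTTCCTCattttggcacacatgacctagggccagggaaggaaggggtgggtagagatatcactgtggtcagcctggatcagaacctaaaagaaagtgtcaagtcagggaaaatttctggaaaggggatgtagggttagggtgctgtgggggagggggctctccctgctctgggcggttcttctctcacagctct
Fcrls: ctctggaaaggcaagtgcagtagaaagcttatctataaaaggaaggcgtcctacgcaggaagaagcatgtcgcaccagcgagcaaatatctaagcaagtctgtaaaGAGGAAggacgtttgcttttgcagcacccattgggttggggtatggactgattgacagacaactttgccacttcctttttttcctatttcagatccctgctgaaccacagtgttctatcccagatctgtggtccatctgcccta
Mrc1: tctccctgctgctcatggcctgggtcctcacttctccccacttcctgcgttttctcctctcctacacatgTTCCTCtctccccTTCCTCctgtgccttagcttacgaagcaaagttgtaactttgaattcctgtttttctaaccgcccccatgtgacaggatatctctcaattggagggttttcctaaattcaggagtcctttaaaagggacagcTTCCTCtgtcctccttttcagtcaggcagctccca
Mpeg1: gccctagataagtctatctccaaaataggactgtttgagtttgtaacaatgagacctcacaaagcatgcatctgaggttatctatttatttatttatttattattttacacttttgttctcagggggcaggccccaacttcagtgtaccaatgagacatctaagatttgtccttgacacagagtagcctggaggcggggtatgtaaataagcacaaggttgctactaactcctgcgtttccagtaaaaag
Itgam: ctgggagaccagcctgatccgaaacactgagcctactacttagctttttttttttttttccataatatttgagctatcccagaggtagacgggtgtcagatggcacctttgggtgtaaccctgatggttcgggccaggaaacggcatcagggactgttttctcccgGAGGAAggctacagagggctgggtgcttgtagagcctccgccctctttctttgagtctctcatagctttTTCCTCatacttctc
The motif occurred 3 times in the window of Mrc1, 2 times in that of Itgam, 1 time in those of C1qc and Fcrls, and was not found in that of Mpeg1. Of the 33 genes, 24 had an entry in the promoter table (Cd68 and Clec7a, which have no feature, among them). GAGGAA, searched on both strands, was present for 15 of the 24 (62.5%), against 25.9% of the 27025 genes in the table. The longer form GAGGAAGT, which overlaps it, was present for 2 of the 24 (C1qc and Pf4) and for 2.79% of genes. The C/EBP motif TTGCNNAA was present for 2 of the 24 and for 10.8% of genes. TATAAA, the letters of the TATA box, was counted at any position and on either strand. It was present for 4 of the 24 and for 14.3% of genes. A match shows only that these letters stand in the window.

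The first comparison asked how the markers differed between the soft and the stiff hydrogel. On 8 kPa hydrogels 28 of the 31 markers had a lower mean than on 126 kPa hydrogels (44.3% of all features did), with a median log2 difference (8 kPa minus 126 kPa) of -1.26, while the median of all features was 0.03. Past limma with Benjamini-Hochberg adjustment over all features, 5 markers were lower and 0 higher, against 0.0721% of all features lower (16 of 22206). The 5 were the complement gene C1qc, the Fc receptor-like gene Fcrls, the mannose receptor gene Mrc1, the perforin-2 gene Mpeg1 and the integrin gene Itgam, which fell by 4.05-fold to 7.86-fold. At least 2-fold lower between group means were 20 of the 31 markers (0.815% of all features), and at an unadjusted p under 0.05 25 were lower (4.69% of all features).

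C1q, the recognition molecule of the classical complement pathway, is assembled from the products of C1qa, C1qb and C1qc, which neighbour each other on chromosome 4. C1qc was at -2.81 and -3.14 on 8 kPa, against -0.06 and 0.06 on 126 kPa, which is -2.97 on the log2 scale between the means of 2 arrays each (SE 0.173, adjusted p = 0.0227 from limma). C1qb was at -3.02 and -2.52 on 8 kPa, against 0.36 and -0.36 on 126 kPa, and its difference of -2.77 (SE 0.303) did not pass (adjusted p = 0.0823 from limma). C1qa was at -1.66 and -1.52 on 8 kPa, against 0.30 and -0.30 on 126 kPa (log2 difference -1.59, SE 0.233, adjusted p = 0.14 from limma). In all 3 genes both 8 kPa arrays lay below both 126 kPa arrays (17.8% of all features did). The 126 kPa arrays stood farther apart for C1qa and C1qb than for C1qc.

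Fcrls, which in mice is known from microglia and other tissue macrophages, was at -2.76 and -3.04 on 8 kPa, against -0.08 and 0.08 on 126 kPa (log2 difference -2.90, SE 0.166, adjusted p = 0.0227 from limma). Mrc1, which encodes the mannose receptor CD206, was at -2.74 on both 8 kPa arrays, against 0.0046 and -0.0046 on 126 kPa (log2 difference -2.74, SE 0.133, adjusted p = 0.0227 from limma). These groups were separated by many times the gap between their replicates. Mpeg1, whose product forms pores in engulfed bacteria, was at -2.67 and -2.36 on 8 kPa, against 0.06 and -0.06 on 126 kPa (log2 difference -2.52, SE 0.168, adjusted p = 0.0327 from limma). Itgam, the αM chain of complement receptor 3, was at -2.07 and -1.96 on 8 kPa, against 0.08 and -0.08 on 126 kPa (log2 difference -2.02, SE 0.147, adjusted p = 0.0433 from limma). Among all features ordered from the most negative difference, C1qc was at place 4, Fcrls at 5, C1qb at 8, Mrc1 at 9, Mpeg1 at 11 and Itgam at 30.

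The other integrins had smaller differences than Itgam, without a test between genes. Itgb2, the β2 chain that pairs with αM, αL and αX, was at -1.25 and -1.19 on 8 kPa, against 0.04 and -0.04 on 126 kPa (log2 difference -1.22, SE 0.137, adjusted p = 0.0823 from limma). Itgal, the αL chain of LFA-1, had overlapping arrays, -0.31 and -0.13 on 8 kPa, against 0.32 and -0.32 on 126 kPa. Itgax, the αX chain also known from dendritic cells, was at -0.05 and 0.19 on 8 kPa, against -0.04 and 0.04 on 126 kPa, and its difference of 0.07 (SE 0.153) was within the spread of the arrays.

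Among the ITAM adaptors and signalling receptors, the 4 members other than Fcrls were lower on 8 kPa with no overlap (17.8% of all features were), and none of them passed. Fcer1g, the common γ chain of Fc receptors, was at -1.85 and -1.53 on 8 kPa, against 0.25 and -0.25 on 126 kPa (log2 difference -1.69, adjusted p = 0.122 from limma). Tyrobp, the adaptor DAP12, was at -1.51 and -1.63 on 8 kPa, against -0.07 and 0.07 on 126 kPa (log2 difference -1.57, adjusted p = 0.0646 from limma). Trem2, a lipid-sensing receptor that signals through DAP12, differed by -0.95, and Cd84, a self-ligand receptor of the SLAM family, by -0.60. The adaptor genes thus had larger differences than these 2 receptor genes, a comparison that was not tested.

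Of the lineage genes, Spi1 was at -1.29 and -1.44 on 8 kPa, against 0.08 and -0.08 on 126 kPa (log2 difference -1.37, SE 0.150, adjusted p = 0.0823 from limma). Csf1r, the receptor for the macrophage growth factors CSF1 and IL-34, was at -1.18 and -1.34 on 8 kPa, against 0.03 and -0.03 on 126 kPa (log2 difference -1.26, adjusted p = 0.0839 from limma). Adgre1, an adhesion receptor gene used to mark mouse macrophages, was at -1.50 and -1.62 on 8 kPa, against 0.04 and -0.04 on 126 kPa (log2 difference -1.56, adjusted p = 0.0646 from limma). In these 3 genes the gap between the groups was far wider than that between replicates, although the adjusted p missed the threshold. Cx3cr1, the fractalkine receptor, differed by -0.86 and had 8 kPa arrays at -1.12 and -0.61.

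The lysosomal genes Lyz2 (lysozyme M) and Ctss (cathepsin S) differed by -1.40 and -1.16, and Cybb, the membrane subunit of the phagocyte NADPH oxidase, by -0.87. The pan-leukocyte genes Laptm5, Ptprc (CD45) and Cd53 differed by -1.27, -1.004 and -0.97. For these 6 genes, both 8 kPa arrays were lower than both 126 kPa arrays (17.8% of all features were). The adjusted p lay between 0.0823 and 0.383 from limma. The 126 kPa arrays of Ptprc and Cybb were themselves 0.68 and 0.73 apart. F13a1, the transglutaminase factor XIII A, differed by -1.55, Ms4a7, a tetraspan membrane protein gene, by -1.15 and Cd14, the co-receptor for lipopolysaccharide, by -1.28. These genes were also lower with no overlap (17.8% of all features were).

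The exceptions were 6 genes. Aif1, which encodes the actin-binding protein IBA1, was at -0.57 and 0.14 on 8 kPa, against 0.09 and -0.09 on 126 kPa. The chemokine gene Pf4 was at -0.17 and -0.54 on 8 kPa, against 0.37 and -0.37 on 126 kPa, so neither gene separated the groups, nor did Itgal and Itgax. Cd163, the haemoglobin scavenger receptor, was at 0.24 on both 8 kPa arrays, against -0.02 and 0.02 on 126 kPa (log2 difference 0.24, SE 0.134, adjusted p = 0.601 from limma). Lyve1, a hyaluronan receptor of lymphatic endothelium and of some tissue macrophages, was at 0.83 and 0.57 on 8 kPa, against 0.49 and -0.49 on 126 kPa (log2 difference 0.70, SE 0.344, adjusted p = 0.553 from limma). These 2 scavenger receptor genes were higher in both 8 kPa arrays, as were 24.3% of all features, whereas 25 markers were lower in both, against 17.8% of all features. The 5 calls rest on 2 residual degrees of freedom, and none of the 5 passed in a fit with the replicate number as a block or without any 1 of the 4 arrays, settings in which 0% of all features passed. In 1 fit to all 14 arrays, where the spread of every group is shared, none of the 5 passed although 0.787% of all features were lower and 0.759% higher.

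**Figure D2:**
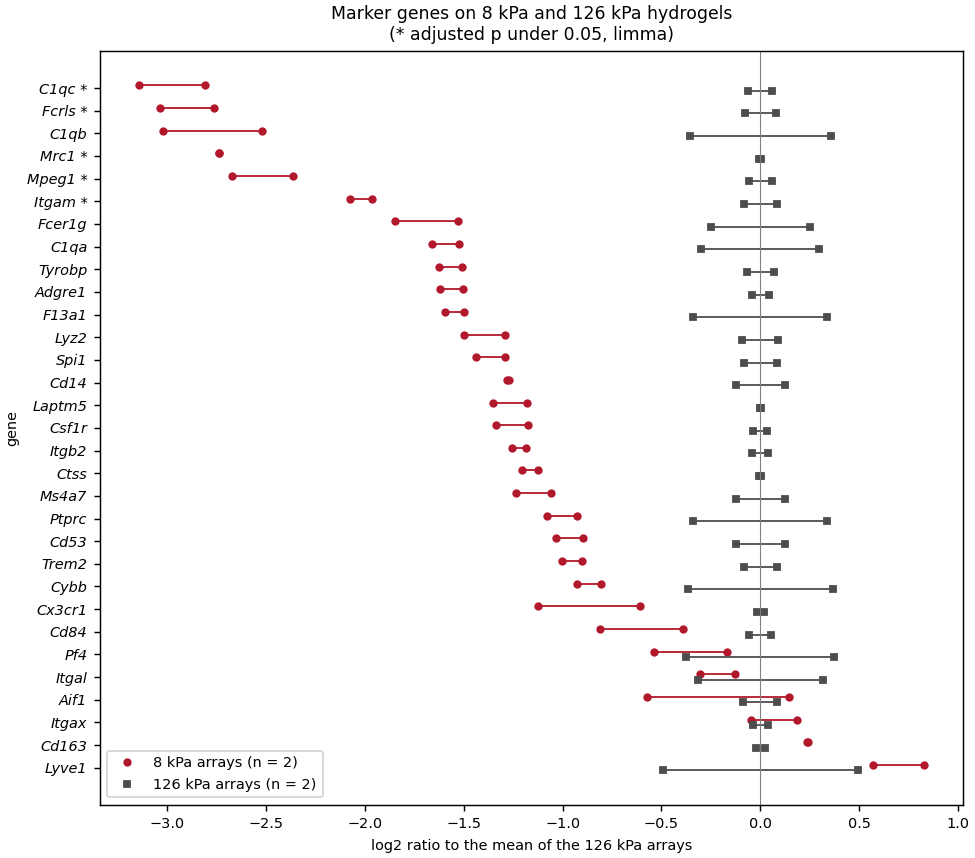
Log2 ratio to the mean of the 126 kPa arrays for each of the 31 markers; red circles are the 2 GHMT/8 kPa arrays, grey squares the 2 GHMT/126 kPa arrays, and the lines join the 2 arrays of a group. The red circles lie left of the grey squares for 25 genes and right of them for Cd163 and Lyve1.

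In the shRNA set the scramble arrays differed widely from each other. Scramble replicate 1 minus replicate 2 ranged over the markers from -0.11 for Lyve1 to 3.98 for Aif1, which had the 2nd largest such gap of 22123 features. Higher in replicate 1 were 30 of 31 markers (42.8% of all features). C1qc was at 1.42 in replicate 1 and -1.42 in replicate 2, Csf1r at 1.39 and -1.39, and Lyz2 at 0.49 and -0.49. Cd163 and Pf4 were closer, with gaps of 0.07 and 0.46. Of the 100 features with the widest gaps in this direction 11 were markers. Each knockdown is therefore given against the scramble mean and against each scramble array.

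With shYAP 29 of the 31 markers were lower than the scramble mean (41.5% of all features were), with a median log2 difference of -2.87, against 0.05 over all features. At least 2-fold lower were 26 (1.93% of all features), and both shYAP arrays lay below both scramble arrays for 27 (19.6% of all features). Past limma 0 markers were lower (0.212% of all features) and 0 higher (0.321% of all features), while 25 were lower at an unadjusted p under 0.05 (7.39% of all features). C1qa, the largest, was at -3.42 and -4.13 with shYAP, against 1.35 and -1.35 with scramble shRNA (log2 difference -3.78, SE 0.792, adjusted p = 0.106 from limma). Mpeg1 was at -2.91 and -4.61 with shYAP, against 1.11 and -1.11 with scramble shRNA (log2 difference -3.76, adjusted p = 0.109 from limma). For both genes the shYAP arrays were lower than either scramble array, and the scramble arrays differed by more than 2 on the log2 scale.

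Cybb, Itgam and C1qc followed in size. Cybb was at -2.90 and -4.38 with shYAP, against 1.24 and -1.24 with scramble shRNA (log2 difference -3.64, adjusted p = 0.119 from limma). Itgam was at -2.71 and -4.33 with shYAP, against 1.18 and -1.18 with scramble shRNA (log2 difference -3.52, adjusted p = 0.122 from limma). C1qc was at -2.70 and -4.13 with shYAP, against 1.42 and -1.42 with scramble shRNA (log2 difference -3.41, adjusted p = 0.143 from limma). In each of these genes shYAP replicate 1 was the higher shYAP array. Mrc1 had the widest gap between the shYAP arrays of all features, at -1.28 in replicate 1 and -4.83 in replicate 2, and of the 20 features with the widest gaps in that direction 10 were markers.

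Against scramble replicate 2 alone, the lower of the scramble arrays for 30 markers, the shYAP mean was lower by a median log2 difference of -1.86, with 23 of 31 markers at or below -1 (0.999% of all features). Against scramble replicate 1 alone the median was -3.89, with 28 markers at or below -1 (3.17% of all features). In limma without scramble replicate 2, 24 markers were lower (5% of all features), and without scramble replicate 1, 1 marker was lower (0.262% of all features), namely C1qa with an adjusted p of 0.0454 from limma. Each of these fits holds 1 scramble array, which is assumed to vary like the shYAP and shTAZ arrays, so the wide gap between the scramble arrays is not in its spread. The shYAP mean was below both scramble arrays for most markers, while the number past limma depended on which scramble array was used. A fit with the replicate number as a block gave 1 marker lower (0.0407% of all features) and 1 fit to all 14 arrays gave 12 (1.44% of all features).

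For 4 markers the shYAP and scramble arrays overlapped. Lyve1 was at 2.68 and -0.17 with shYAP, against -0.06 and 0.06 with scramble shRNA, so its difference of 1.26 (SE 0.807, adjusted p = 0.441 from limma) came from shYAP replicate 1. Cd163 was at 0.31 and -0.12 with shYAP, against 0.03 and -0.03 with scramble shRNA (log2 difference 0.09). Itgax was at -0.85 and -0.24 with shYAP, against 0.53 and -0.53 with scramble shRNA (log2 difference -0.54, adjusted p = 0.454 from limma). F13a1 was at -0.91 and -2.98 with shYAP, against 1.07 and -1.07 with scramble shRNA, so that only shYAP replicate 2 lay below both scramble arrays.

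With shTAZ 30 of the 31 markers were lower than the scramble mean (41% of all features were), with a median log2 difference of -4.58, against a median over all features of 0.04. At least 2-fold lower were 28 (1.95% of all features), and both shTAZ arrays lay below both scramble arrays for 30 (17.9% of all features). Past limma 0 markers were lower or higher, as were 0% of all features, while 28 were lower at an unadjusted p under 0.05 (5.71% of all features). Lyz2 had the most negative difference of all 22122 features and Mrc1, Mpeg1 and Spi1 the next 3.

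Lyz2 was at -7.48 and -6.18 with shTAZ, against 0.49 and -0.49 with scramble shRNA (log2 difference -6.83, SE 0.608, adjusted p = 0.0568 from limma). Mrc1 was at -6.80 and -6.68 with shTAZ, against 0.96 and -0.96 with scramble shRNA (log2 difference -6.74, SE 1.14, adjusted p = 0.115 from limma). Mpeg1 was at -6.74 and -6.19 with shTAZ, against 1.11 and -1.11 with scramble shRNA (log2 difference -6.46, SE 0.807, adjusted p = 0.0778 from limma). In all 3 genes both shTAZ arrays stood more than 5 below the lower scramble array, and of the 3 Lyz2 had the closest scramble arrays. Spi1 was at -6.56 and -5.99 with shTAZ, against 0.87 and -0.87 with scramble shRNA (log2 difference -6.28, SE 0.756, adjusted p = 0.0778 from limma). Fcer1g was at -6.59 and -5.44 with shTAZ, against 0.87 and -0.87 with scramble shRNA (log2 difference -6.02, SE 0.833, adjusted p = 0.0921 from limma).

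The shTAZ arrays were close to each other, with a median gap of -0.06 and 2 markers at least 1 apart (Lyz2 and Fcer1g), as were 0.14% of all features. By role, the medians of the differences were -5.18 for the 3 C1q genes and -5.87 for the 4 lysosomal and antimicrobial genes, and -4.49 for the 4 lineage factor and surface receptor genes. The ITAM adaptors and signalling receptors had -4.34, the pan-leukocyte genes -4.06 and the secreted and tetraspan genes -3.89. The leukocyte integrins had -2.40 and the scavenger and pattern recognition receptors -2.18. The integrins ranged from -5.72 for Itgam to -0.69 for Itgax, with Itgb2 at -3.42 and Itgal at -1.38. Only Cd163 had overlapping arrays, at 0.0063 and 0.07 with shTAZ, against 0.03 and -0.03 with scramble shRNA. Lyve1 differed by -0.25 (SE 0.807, which includes the spread of the shYAP arrays).

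Against scramble replicate 2 alone the shTAZ mean was lower by a median log2 difference of -3.28, with 26 of 31 markers at or below -1 (1.26% of all features), and against scramble replicate 1 alone by a median of -5.89, with 29 (3.08% of all features). In limma without scramble replicate 1, 16 markers were lower (0.588% of all features), and without scramble replicate 2, 29 were lower (4.46% of all features), again with the lone scramble array assumed to vary like the others. In 1 fit to all 14 arrays 24 were lower (1.25% of all features). The shYAP and shTAZ comparisons share the scramble arrays, so their counts are not independent of each other.

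**Figure D3:**
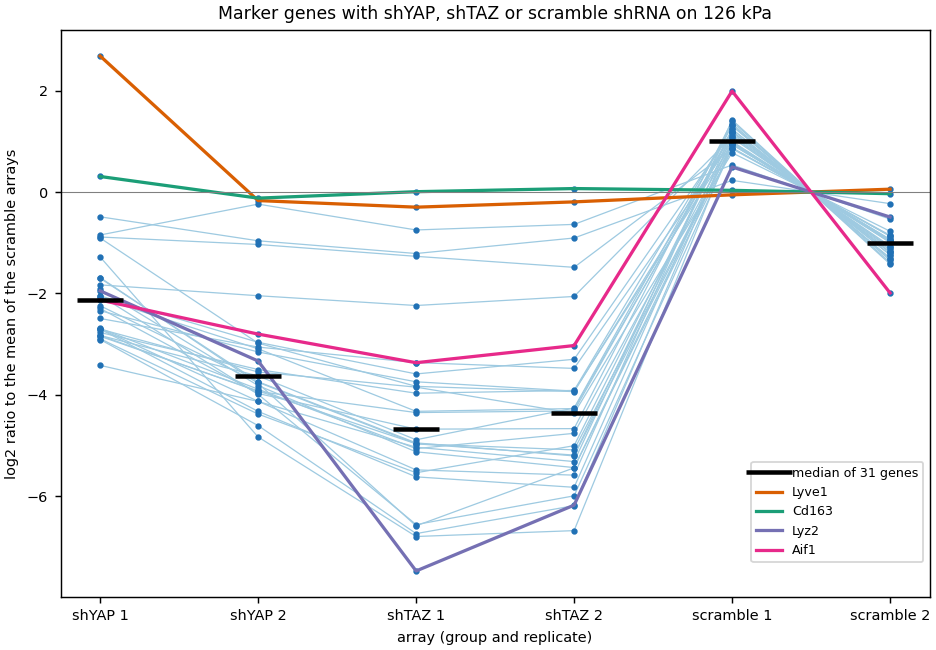
Log2 ratio to the mean of the scramble arrays for the 31 markers (thin lines and points) on the 6 arrays of the shRNA set, all on 126 kPa; black bars are medians over the 31 genes and 4 genes are coloured. Scramble 1 is above scramble 2 for 30 genes, and both shTAZ arrays lie below both shYAP arrays for 28.

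The direct comparison of the knockdowns does not draw its difference from the scramble arrays, but its SEs and adjusted p-values include their spread. For Ptprc the standard deviation was 0.15 with shYAP and 0.13 with shTAZ, against 1.55 with scramble shRNA. In a fit to only the shYAP and shTAZ arrays 0 markers were higher (0.0407% of all features). The smallest adjusted p of a marker there was 0.0871 from limma. All 31 markers had a higher mean with shYAP than with shTAZ (53.1% of all features did), with a median log2 difference (shYAP minus shTAZ) of 1.54, and for 28 of them both shYAP arrays lay above both shTAZ arrays (23.6% of all features). At least 2-fold higher were 20 (0.42% of all features), and past limma 0 were higher (0.0316% of all features), with 10 at an unadjusted p under 0.05 (3.93% of all features). Lyz2 was at -1.95 and -3.33 with shYAP, against -7.48 and -6.18 with shTAZ (log2 difference 4.19, SE 0.608, adjusted p = 0.158 from limma). Mrc1 differed by 3.68 (SE 1.14), Fcer1g by 3.28, Spi1 by 3.26 and Mpeg1 by 2.70, with adjusted p-values between 0.392 and 0.515 from limma. Of all 22122 features, Lyz2, Mrc1, Fcer1g and Spi1 had the 4 most positive differences. Ptprc, at -1.83 and -2.05 with shYAP, against -2.24 and -2.06 with shTAZ, differed by only 0.21 (SE 0.626), and Itgax and Cd163 by 0.15 and 0.06.

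For 26 of the 31 markers the order of the arrays was the same, an order written down after the values had been seen. Scramble replicate 1 was highest, followed by scramble replicate 2, shYAP replicate 1, shYAP replicate 2 and then both shTAZ arrays, an order found in 1.2% of all features. Aif1, which separated the shTAZ and scramble arrays (-3.37 and -3.03 with shTAZ, against 1.99 and -1.99 with scramble shRNA), did not separate the stiffness groups.

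The mutants were expressed on 8 kPa hydrogels, and their reference is not stated, so a value below 0 shows only a position relative to that reference. In all 4 mutant arrays 24 of the 31 markers were below 0 (20.6% of all features) and 12 were at or below -1 (0.917% of all features). Past limma 0 markers differed between YAP-5SA and TAZ-4SA in either direction (0.493% of all features lower, 0.402% higher), and at an unadjusted p under 0.05 only Cd163 was lower with YAP-5SA (7% of all features). The median log2 difference (YAP-5SA minus TAZ-4SA) was 0.54, and 2 markers were at least 2-fold higher (0.71% of all features). Cd53 was at -2.93 and -0.92 with YAP-5SA, against -2.64 and -3.68 with TAZ-4SA (log2 difference 1.24, SE 0.629, adjusted p = 0.444 from limma). Mrc1 was at -3.72 and -1.38 with YAP-5SA, against -3.58 and -3.52 with TAZ-4SA (log2 difference 1.001, SE 0.649, adjusted p = 0.554 from limma). In both genes it was YAP-5SA replicate 2 that stood above the other 3 arrays.

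YAP-5SA replicate 2 was the highest of the 4 mutant arrays for 27 of the 31 markers (29.1% of all features). Lyz2 was at -5.16 and -0.90 with YAP-5SA, against -2.48 and -4.66 with TAZ-4SA, so that the replicates of each mutant differed by more than the mutants did (log2 difference 0.54, SE 1.31). Fcer1g was at -4.80 and -0.85 with YAP-5SA, against -2.85 and -4.24 with TAZ-4SA, and Spi1 at -5.06 and -2.11 with YAP-5SA, against -3.87 and -4.75 with TAZ-4SA. Without YAP-5SA replicate 1, 13 markers were higher past limma (2.1% of all features), on 1 residual degree of freedom that comes from the TAZ-4SA arrays alone. Without YAP-5SA replicate 2 the median difference was -0.16, opposite in sign to that of the 4 arrays, and 0 markers passed in either direction (0.913% of all features lower, 0.732% higher).

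Some markers lay near 0 or above it in the mutant arrays. Pf4 was at -0.10 and 0.23 with YAP-5SA, against 0.23 and -0.11 with TAZ-4SA, and Aif1 at -0.0068 and 0.21 with YAP-5SA, against 0.09 and -0.10 with TAZ-4SA. Cd163 was at -0.39 and 0.03 with YAP-5SA, against 0.25 and 0.83 with TAZ-4SA (log2 difference -0.71, SE 0.238, adjusted p = 0.271 from limma). Lyve1 was above 0 in every mutant array, at 1.02 and 1.12 with YAP-5SA, against 0.46 and 1.13 with TAZ-4SA.

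**Figure D4:**
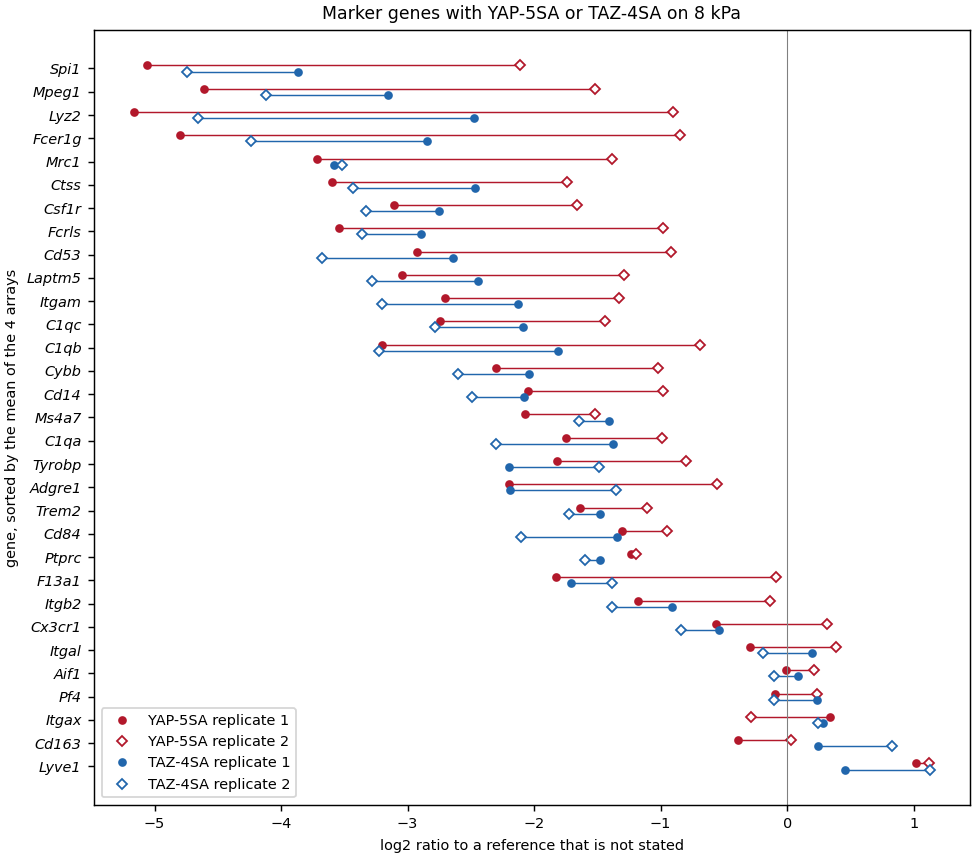
Log2 ratio to the unstated reference for the 31 markers in the GHMT/YAP-5SA arrays (red) and GHMT/TAZ-4SA arrays (blue), with filled circles for replicate 1 and open diamonds for replicate 2; lines join the 2 arrays of a group. The open red diamonds of YAP-5SA replicate 2 lie at the right end of the values for 27 genes.

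Further genes of blood cells, grouped in lists, were read beside the 33. Of 18 measured genes for haematopoietic signalling and cytoskeleton, the median log2 difference was -0.61 on 8 kPa, -2.22 with shYAP and -2.89 with shTAZ, and 0 passed limma in any of these comparisons. The actin regulator gene Nckap1l, expressed in blood cells, differed by -1.18 on 8 kPa, -3.26 with shYAP and -4.47 with shTAZ. Of 17 further tissue macrophage genes, the medians were -0.40, -1.42 and -1.85 in the same order, and only Cd5l, a secreted macrophage protein gene, fell past limma, with shYAP (log2 difference -3.04, SE 0.330, adjusted p = 0.0353 from limma). Of 9 lipid-handling macrophage genes they were -0.08, -0.81 and -0.91, and all 9 were lower with either shRNA (41.5% and 41% of all features). Of 10 osteoclast and multinucleation genes they were -0.02, -0.0034 and -0.20. Of 14 myeloid transcription factor genes they were -0.06, -0.35 and -0.30. In these 3 lists 0 genes passed limma. Of 4 other NADPH oxidase subunit genes, only Ncf4 fell past limma with shYAP (log2 difference -2.04, SE 0.246, adjusted p = 0.0393 from limma). The medians of the 4 were -0.20 on 8 kPa, where 2 were lower and 2 higher, -1.40 with shYAP and -0.69 with shTAZ. With shTAZ 1 of them was higher, by 0.67, and 0 passed on 8 kPa or with shTAZ. Of 10 genes for Fc receptors and MHC class II, 5 were lower and 5 higher on 8 kPa (44.3% of all features were lower), with a median of 0.06, and 0 passed. The Fc receptor genes differed by -1.60 for Fcgr2b, -1.06 for Fcgr3, -0.34 for Fcgr1 and 0.29 for Fcgr4 on 8 kPa. With shTAZ 9 of the 10 were lower (41% of all features were), with a median of -0.62. The differences were -4.50 for Fcgr2b, -4.54 for Fcgr3, -1.71 for Fcgr1 and -1.17 for Fcgr4.

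Lists of other cell types, with monocytes and dendritic cells among them, had medians between -0.08 and 0.28 in these comparisons, while single genes in them lay further from 0. Of 14 T, B and NK cell genes the median was 0.02 on 8 kPa, 0.03 with shYAP and 0.05 with shTAZ, where they ran from -1.06 to 0.23. Of 13 neutrophil and mast cell genes it was 0.09, 0.13 and 0.01. Of 13 fibroblast genes the median was -0.08 on 8 kPa, 0.23 with shYAP and 0.21 with shTAZ, with values from -0.63 to 0.68 on 8 kPa, and 0 passed limma. With either shRNA 10 of the 13 fibroblast genes were higher, as were 12951 of all 22122 features with shYAP and 13057 with shTAZ. Of 12 endothelial genes the median was 0.21 on 8 kPa, where 9 were higher (12367 of all 22206 features were), 0.01 with shYAP and -0.07 with shTAZ. Of 11 monocyte and dendritic cell genes the median was 0.28 on 8 kPa, where 7 were higher (12367 of all 22206 features were), 0.06 with shYAP and 0.04 with shTAZ. They ran from -1.41 to 0.83 on 8 kPa, from -2.76 to 0.41 with shYAP and from -2.74 to 0.27 with shTAZ. Of 6 erythroid and megakaryocyte genes it was -0.04, 0.06 and 0.03. Of 9 genes for CSF1 and GM-CSF ligands and receptors the median was 0.29 on 8 kPa, 0.10 with shYAP and -0.02 with shTAZ, and 0 passed limma. At least 2-fold lower were 2 with shYAP (1.93% of all features) and 3 with shTAZ (1.95% of all features), the lowest at -1.76 and -2.22. Among them Csf2rb, the common β chain, differed by 1.63 on 8 kPa (SE 0.137, adjusted p = 0.0594 from limma), opposite in sign to Csf1r there.

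**Figure D5:**
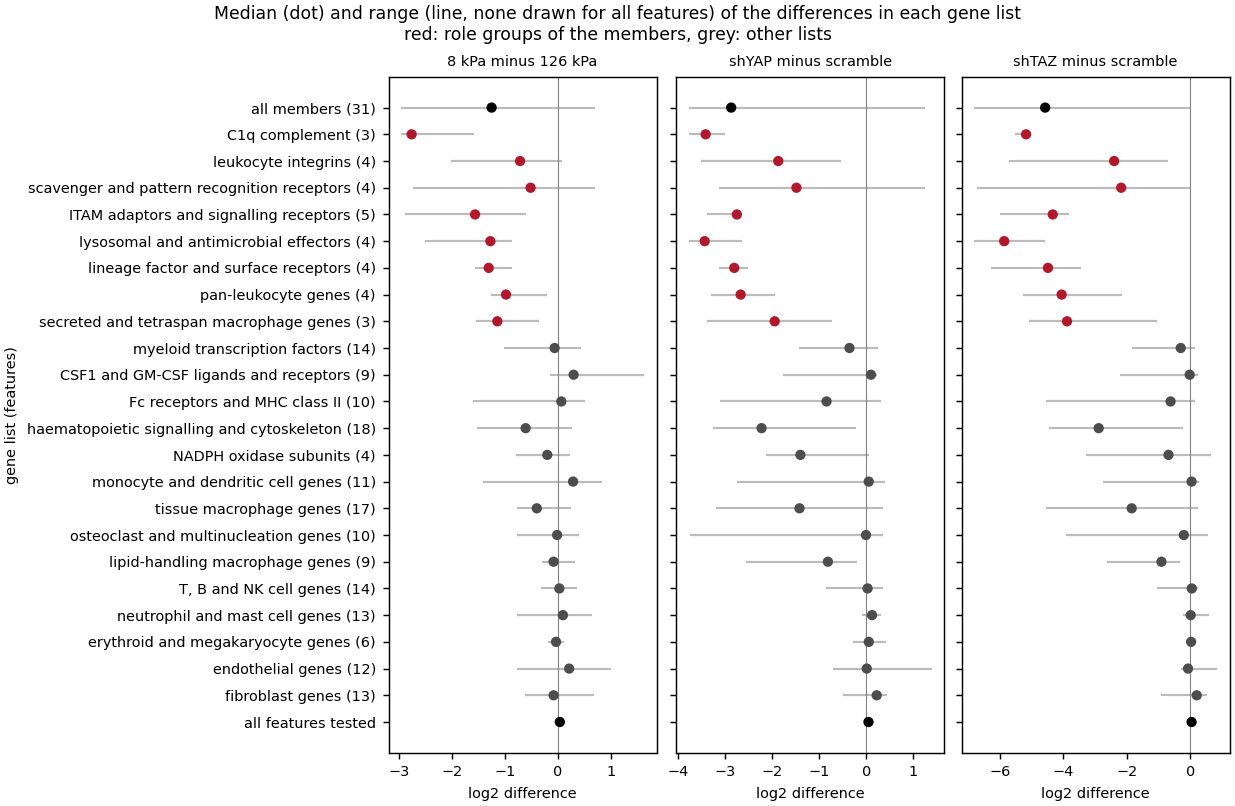
Median log2 difference (dots) and range (lines) of each gene list on 8 kPa minus 126 kPa, shYAP minus scramble and shTAZ minus scramble, with the number of measured genes in brackets; red dots are the role groups of the 31 markers and grey dots the other lists. The dots of the role groups lie left of 0 in all 3 panels. Those of the T, B and NK cell, neutrophil and mast cell, erythroid and fibroblast lists lie between -0.08 and 0.23. Lines of both kinds of list cross 0, with the scavenger and pattern recognition receptors reaching 0.70 on 8 kPa and 1.26 with shYAP.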

How the data were processed

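RNA of 14 samples, 2 per group in 7 groups, was hybridised to Clariom S Mouse arrays. Scans went through Affymetrix Expression Console (version 1.4), per the submitters' processing notes, and the authors deposited log2 ratios in 3 sets; in the stiffness and shRNA sets the reference pair averages to 0 for every feature. Genes were named through the platform annotation. The 33 members, their 8 role groups and the 14 other lists were chosen with earlier results of these data known. Within each set, limma 3.58.1 (R 4.3.3) was fitted to the features with a value on every array of the set (22206, 22122 and 22127), 2-sided, with Benjamini-Hochberg adjustment and a threshold of 0.05 on the adjusted p. Residual degrees of freedom were 2, 3 and 2. The 3 shRNA groups shared 1 fit. A 2-fold change is a difference of group means of at least 1 in log2. No filter or pseudocount was applied, since the ratios carry no signal, and only the number of arrays shows the precision. P-values measure the spread between the 2 samples of a group, pooled over all groups of a set and moderated across features. In the shRNA set the spread of all 3 groups thus enters each comparison. Where an array is left out, the lone array of its group is assumed to vary like the other groups. Members past limma, and otherwise the 5 largest and the 3 smallest differences, were set to receive every array value; further members were added after their values were seen. Promoter windows were the 250 bases before the start, without the 50 bases after it that had been planned, so that no transcribed sequence is shown. A planned look at the proteins was not analysed here. The alternatives were centring each array on its median, leaving out each array, the replicate number as a block, 1 fit to all 14 arrays, only the arrays of the groups compared, array weights, robust moderation, features with 1 symbol only, and 2-fold in all 4 single-array differences. The fitting was tested on simulated data with large known differences and the same spread in every group of a set. Smaller differences, and a group with a wide gap such as the scramble arrays, were not covered. The check on wrong signs was limited to features that passed, after 1 simulated feature that did not pass had the wrong sign.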

Additional observations from a re-analysis of the deposited data

How the results depend on the processing

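On 8 kPa the count of markers lower past limma was 0 with the replicate block and 0 to 0 without 1 array (1 residual degree of freedom each, with 0% of all features passing), and 0 in 1 fit to all 14 arrays (0.787% of all features lower), against 5 of 31 as reported. The number at least 2-fold higher was 0 to 1 without 1 array. With shYAP the count lower past limma was 1 with the replicate block, 12 in the 14-array fit and 0 to 24 without 1 array. The rule of 2-fold in all 4 single-array differences gave 16 lower (0.542% of all features) and 0 higher (0.212%) with shYAP, and without 1 array 0 to 1 were 2-fold higher. With shTAZ the count lower past limma was 24 in the 14-array fit and 0 to 29 without 1 array. For shYAP minus shTAZ, 12 were 2-fold higher in all 4 single-array differences (0.181% of all features). For YAP-5SA minus TAZ-4SA, without 1 array 0 to 13 were higher past limma, 0 to 19 were 2-fold higher and 0 to 2 were 2-fold lower, the median was -0.16 to 1.21, and 0 were 2-fold higher in all 4 single-array differences (0.289% of all features). The causes of these changes were not tested.

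The sign changed under some alternative for 4, 2, 1, 2 and 21 of the 31 markers on 8 kPa, with shYAP, with shTAZ, for shYAP minus shTAZ and for YAP-5SA minus TAZ-4SA. Only Cd163 did so without an array being left out, with shTAZ, at -0.00401 with each array centred on its median. The ranges without 1 array were -0.73 to 0.020 for Pf4, -0.53 to 0.10 for Itgal, -0.57 to 0.14 for Aif1 and -0.046 to 0.19 for Itgax on 8 kPa, -0.12 to 0.31 for Cd163 and -0.17 to 2.68 for Lyve1 with shYAP, and -0.16 to 0.27 for Cd163 and -0.15 to 0.46 for Itgax for shYAP minus shTAZ. For YAP-5SA minus TAZ-4SA they were -1.25 to 2.70 for Fcer1g, -0.17 to 2.17 for Mrc1, -0.76 to 2.20 for Spi1, -0.65 to 1.21 for Ctss, -0.41 to 2.15 for Fcrls, -0.18 to 1.58 for Laptm5, -0.68 to 1.83 for C1qb, -0.31 to 0.99 for C1qc, -0.17 to 0.18 for Pf4, -0.30 to 0.38 for Itgal, -0.045 to 1.33 for Itgam, -0.54 to 0.079 for Itgax, -0.031 to 1.01 for Itgb2, -1.59 to 2.67 for Lyz2, -0.28 to 1.46 for F13a1, -0.035 to 0.49 for Trem2, -0.43 to 1.22 for Adgre1, -0.068 to 1.38 for Csf1r, -0.97 to 2.12 for Mpeg1, -0.055 to 0.61 for Lyve1 and -0.55 to 0.0057 for Ms4a7.

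The labels number the replicates without naming a shared batch. Over all features, the deviations of same-numbered samples correlated by 0.05 for the stiffness groups and 0.15 for the mutants. In the shRNA set they correlated by 0.20 for shYAP with scramble, -0.02 for shTAZ with scramble and -0.00075 for shYAP with shTAZ. On these values the numbers were not taken to pair the samples. Among the markers, however, 30 of 31 were higher in replicate 1 in both the scramble group (42.8% of all features) and the shYAP group. In the shTAZ group 12 were, in YAP-5SA 1 and in TAZ-4SA 25 (48.6% of all features). For shYAP, shTAZ and YAP-5SA the share over all features was not counted. The median gap of all features (replicate 1 minus replicate 2) was 0.0074, -0.0035 and -0.0072 in these groups. Whether same-numbered samples were handled together was not tested. The replicate block changed no other count of markers past limma. With 2 arrays per group and no signal over background in the values, a small difference, or one in a marker near background, would not be seen.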
